A study of Mus musculus with 7 samples.

Results

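Ribosome assembly genes were measured in satellite cells, the muscle stem cells that sit under the basement membrane of the fibre, taken from mice after death and from old living mice. The genes described here encode 52 nucleolar ribosome biogenesis factors, out of 13287 genes that the array named through a probe set of a single gene. They were chosen by name: all genes whose symbol begins with Nop, Nol, Utp or Rrp and a digit, and 18 further factors of known function (Imp3, Imp4, Bop1, Pes1, Wdr12, Wdr43, Wdr75, Fbl, Dkc1, Ncl, Npm1, Rrs1, Bysl, Gnl3, Ebna1bp2, Ftsj3, Nip7 and Mrto4). Each gene was read from its brightest probe set. The names also took in Nol3 and Nol4, which carry a nucleolar name but are not known as ribosome assembly factors. Nol4l, Rrp7a, Utp14b and the pseudogene Utp14b-ps1 fit the naming rule but were not analysed here. The 52 genes lie on 18 chromosomes.

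The arrays comprised 3 of cells isolated 4 days post mortem (D4PM), 2 of cells isolated 2 days post mortem (D2PM) and 2 of cells from living old mice (old). All 3 groups carried the Tg:Pax7-nGFP transgene, in which regulatory sequence of Pax7 drives a nuclear green fluorescent protein, and cells were sorted by FACS on that fluorescence. Mice used post mortem were aged 8 to 12 weeks. The old mice were 24 to 26 months old by the array labels and the methods, whereas the title of the series has young adult cells and its design text 24 to 26 weeks. Arrays of young living mice were not analysed here, so death and age cannot be told apart in any comparison with old cells. Nothing in the sources used here ties the arrays of a group to separate mice, and a p-value therefore refers to array-to-array spread, which may be technical.

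The nucleolus is the site where RNA polymerase I transcribes the ribosomal RNA precursor and where that precursor is cut, modified and folded onto ribosomal proteins. Small nucleolar RNAs of the box C/D and box H/ACA classes guide the chemical modification of the precursor, the small subunit processome assembles on its first part, and a separate series of factors matures the large subunit. Production of ribosomes is costly, and it is known to be low in resting cells and to be raised when cells grow or enter the cell cycle, in part through the transcription factor Myc.

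Values are log2 signals from RMA, a procedure that subtracts background, brings the arrays to a common distribution and combines the probes of each set, so a change is relative to the other transcripts on the array. In such bulk samples fewer cells of a type and less RNA per cell cannot be told apart. Array medians ranged between 6.11 and 6.19. Of the 13287 genes, 9944 had a mean log2 level of at least 5.12 and were tested, and all 52 nucleolar genes were among them. Genes were called changed at a Benjamini-Hochberg adjusted p under 0.05 over the 9944 genes, from 1 limma fit of the 3 groups. Pax7, the defining gene of the sorted cells, had log2 levels of 10.52, 10.30 and 10.47 at D4PM, 10.17 and 10.43 at D2PM, and 10.26 and 9.87 in old cells, and it did not pass the test between post-mortem and old cells (adjusted p = 0.135 from limma).

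The nucleolar genes were lower in post-mortem than in old cells. With D2PM and D4PM given equal weight against old, 40 of 52 were lower, 1 was higher and 11 did not pass the test, where 14.7% of all genes tested were called lower and 14.4% higher. The median log2 change of the 52 genes was -0.711, or 0.611 of the old level on the linear scale, against 0.002 for all genes tested. The change was below 0 for 47 of the 52, whereas 49.7% of all genes tested were below 0. All 5 post-mortem arrays were below both old arrays in 39 of the 52 genes, and 23.2% of all genes were separated in that way. Standard errors of the log2 change had a median of 0.131.

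The mean log2 level over the 52 genes was 7.867, 7.846 and 7.777 at D4PM, 7.985 and 7.987 at D2PM, and 8.401 and 8.679 in old cells. The groups did not overlap, and the 2 old arrays lay further apart than the arrays within either post-mortem group. Old replicate 2 was above old replicate 1 in 44 of the 52 genes, against 51.6% of all genes tested, and the median size of the difference between these 2 arrays was 0.315 log2 units for the nucleolar genes and 0.159 for all genes. Counts against old cells rested on that array. Without old replicate 2, 18 of the 52 were lower in post-mortem cells (4.54% of all genes tested), and without old replicate 1, 38 were (11.5% of all genes). The median change was -0.537 without replicate 2 and -0.836 without replicate 1. The 18 genes lower without replicate 2 were Fbl, Nop58, Dkc1, Utp18, Utp4, Wdr43, Utp15, Rrp12, Nop14, Gnl3, Rrs1, Rrp1b, Ftsj3, Nol9, Nop2, Pes1, Nop16 and Ncl, and Gnl3 had the smallest adjusted p among them (0.00999 for a change of -1.18). Without that array 3 of the 5 particle proteins, 6 of the 23 small subunit factors and 8 of the 17 large subunit factors were lower.

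**Figure D1:**
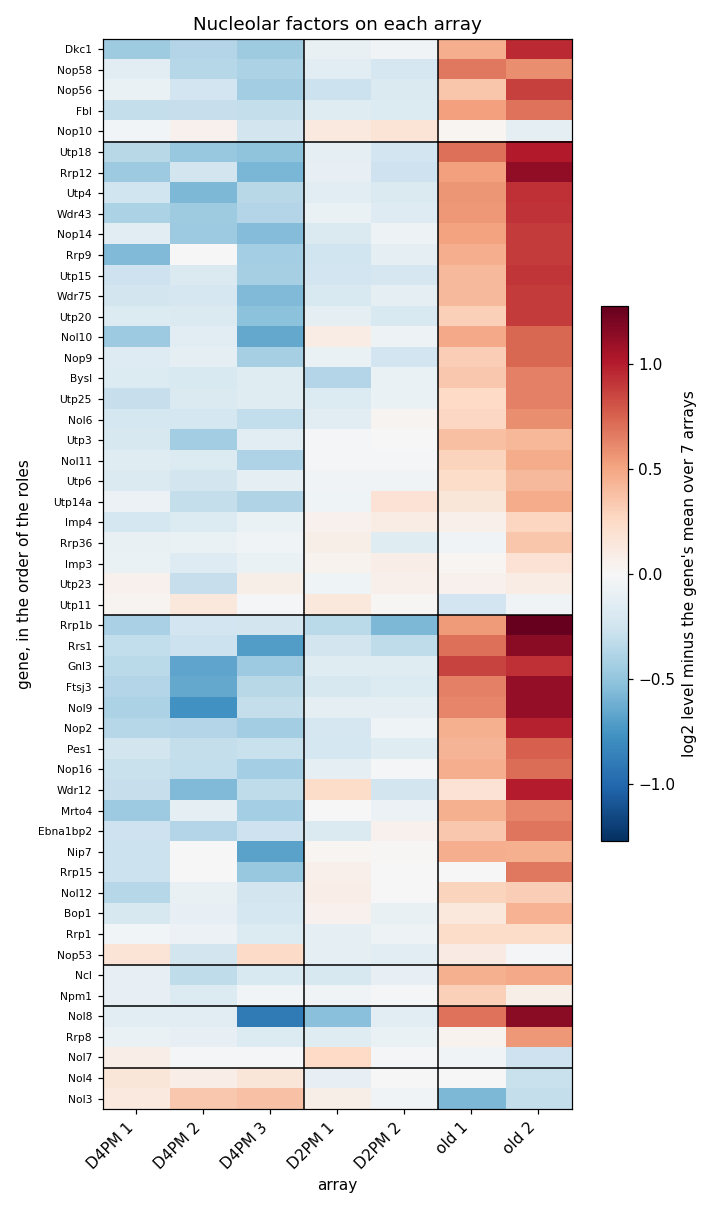
Log2 level of each of the 52 genes on the 7 arrays, less the gene's own mean over the arrays (colour scale in log2 units), with genes in rows by role and arrays in columns from D4PM to D2PM to old. The highest array was an old one in 46 genes and the lowest a D4PM one in 45, and old replicate 2 is redder than old replicate 1 in most rows.

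The sequence around the start site was read for motifs, since so many of these genes moved together. RefSeq promoter windows (assembly GRCm38.p6, 250 bases before to 50 after the start) were at hand for 40 of the 52 genes. The E-box CACGTG, which reads the same on both strands and is bound by Myc with its partner Max, stood in a window of 9 of these 40 genes (22.5%), against 10.5% of 10386 genes on the array and 8.09% of all 27025 genes in the table. It was in the windows of 8 of the 34 genes that were lower in post-mortem cells and of 1 of the 6 others. The ETS motif CCGGAAG stood in 11 of the 40 (27.5%, against 16.2% of array genes), CCAAT in 14 (35%, against 42.2%) and TATAAA in 5 (12.5%, against 11.7%), each searched on both strands. In none of the 9 genes with an E-box did another of these motifs overlap it. A match in these windows is a description of letters, and binding was not measured. The 250 bases before the start of 4 of the genes are shown because each holds an E-box (capitals). Utp18, Nop2 and Nol11 were lower in post-mortem than in old cells, whereas Imp4 did not pass the test. Without old replicate 2 their changes were -1.01 for Utp18, -0.71 for Nop2, -0.41 for Nol11 and -0.11 for Imp4. The windows are chr11:93885767-93886016 on the minus strand for Utp18, chr6:125131633-125131882 on the plus strand for Nop2, chr11:107189382-107189631 on the minus strand for Nol11 and chr1:34439579-34439828 on the plus strand for Imp4.
Utp18: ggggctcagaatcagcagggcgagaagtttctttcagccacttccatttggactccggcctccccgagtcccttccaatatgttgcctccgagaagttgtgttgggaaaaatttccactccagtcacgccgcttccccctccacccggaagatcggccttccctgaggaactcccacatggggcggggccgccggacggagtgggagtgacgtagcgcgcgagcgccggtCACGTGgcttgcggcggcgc
Nop2: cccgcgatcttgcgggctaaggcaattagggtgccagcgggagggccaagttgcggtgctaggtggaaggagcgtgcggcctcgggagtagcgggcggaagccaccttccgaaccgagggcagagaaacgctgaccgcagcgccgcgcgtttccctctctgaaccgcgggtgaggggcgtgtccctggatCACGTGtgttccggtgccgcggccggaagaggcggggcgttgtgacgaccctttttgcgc
Nol11: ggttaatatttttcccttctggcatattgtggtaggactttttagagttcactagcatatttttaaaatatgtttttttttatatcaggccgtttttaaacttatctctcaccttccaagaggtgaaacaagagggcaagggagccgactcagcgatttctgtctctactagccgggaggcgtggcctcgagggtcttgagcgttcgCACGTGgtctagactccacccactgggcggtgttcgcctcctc
Imp4: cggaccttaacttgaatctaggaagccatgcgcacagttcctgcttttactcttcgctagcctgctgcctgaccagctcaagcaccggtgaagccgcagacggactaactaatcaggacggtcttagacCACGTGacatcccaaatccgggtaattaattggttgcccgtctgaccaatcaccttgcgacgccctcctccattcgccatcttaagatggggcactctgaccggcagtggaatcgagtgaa
The first base of the E-box lies at position -20 from the start site in Utp18, -60 in Nop2, -43 in Nol11 and -121 in Imp4. The other genes with an E-box were Pes1, Utp4, Wdr43, Utp20 and Utp25. In Pes1, Utp4, Wdr43 and Utp20 it lies after the start site, at 3, 16, 18 and 38. In Utp25 it lies at 43, 24 or -245, depending on the window.

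Of the 5 proteins of the modification particles, 4 were lower in post-mortem cells, with a median log2 change of -0.853 over the 5. Fbl encodes fibrillarin, the methyltransferase of the box C/D particle. Its log2 level was 10.05, 10.06 and 10.05 at D4PM, 10.20 and 10.18 at D2PM, and 10.88 and 11.05 in old cells. The 3 groups did not overlap, and the change from old was -0.91 at D4PM and -0.77 at D2PM (adjusted p = 0.000406 and 0.00312 from limma). A second, dimmer probe set of Fbl changed by -0.34 in post-mortem against old cells, where the brightest changed by -0.84. Nop56 and Nop58 are the core proteins that hold the same particle together. Nop58 had levels of 9.91, 9.70 and 9.66 at D4PM, 9.91 and 9.84 at D2PM, and 10.73 and 10.65 in old cells. Nop56 had levels of 9.55, 9.39 and 9.20 at D4PM, 9.36 and 9.45 at D2PM, and 9.99 and 10.51 in old cells. Both were lower on every post-mortem array, with changes of -0.88 for Nop58 and -0.85 for Nop56 (adjusted p = 0.00044 and 0.00227). The change of Nop56 was -0.59 without old replicate 2 (adjusted p = 0.066).

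Dkc1 and Nop10 belong to the H/ACA particle, whose catalytic subunit dyskerin is encoded by Dkc1 and converts uridine to pseudouridine. Dkc1 had levels of 6.90, 6.98 and 6.91 at D4PM, 7.26 and 7.31 at D2PM, and 7.82 and 8.31 in old cells, without overlap between any of the groups. It was lower by 0.95 log2 units in post-mortem cells (standard error 0.139, adjusted p = 0.000666), with 1.13 at D4PM and 0.77 at D2PM. Nop10, a small partner of dyskerin, had levels of 9.59, 9.68 and 9.39 at D4PM, 9.74 and 9.80 at D2PM, and 9.64 and 9.51 in old cells. The D4PM and old arrays overlapped, and both D2PM arrays lay above all others. Its post-mortem change of 0.09 did not pass the test (adjusted p = 0.616), nor did its change of 0.20 at D2PM (adjusted p = 0.375).

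Among 23 factors of the small subunit processome and of later small subunit precursors, 18 were lower in post-mortem cells and 5 did not pass the test, with a median change of -0.690. The most negative changes were those of Utp18 and Rrp12. Utp18, a subunit of the UTP-B subcomplex, had levels of 6.93, 6.81 and 6.77 at D4PM, 7.17 and 7.05 at D2PM, and 7.99 and 8.30 in old cells, with no overlap of the 3 groups and a change of -1.17 in post-mortem cells (standard error 0.126, adjusted p = 0.000108). Rrp12, which is known from yeast and human cells for the late maturation and export of small subunit precursors, had levels of 6.74, 6.96 and 6.62 at D4PM, 7.10 and 6.93 at D2PM, and 7.72 and 8.32 in old cells. It changed by -1.13 (adjusted p = 0.0007), and its D4PM and D2PM arrays overlapped.

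The UTP-A subcomplex is the first to bind the precursor and links its transcription to its processing. Its members Utp4, Wdr43, Utp15, Wdr75 and Nol11 were all lower in post-mortem cells, by 1.02, 1.00, 0.92, 0.90 and 0.51 log2 units. The UTP-B member Utp6 was lower by 0.44. Rrp9, which recognises the U3 small nucleolar RNA, changed by -0.93 (adjusted p = 0.00225). The other lower members of this group were Nop14 (-0.95), Utp20 (-0.82), Nol10 (-0.81), Nop9 (-0.73), Bysl (-0.69), Utp25 (-0.62), Nol6 (-0.58), Utp3 (-0.54) and Utp14a (-0.41). For Utp14a 1 post-mortem array, D2PM replicate 2 at 7.46, lay above old replicate 1 at 7.43, and its adjusted p was 0.0449. Without old replicate 2 the changes of the genes in this paragraph were smaller in size. They were -0.25 for Utp14a, -0.53 for Utp20, -0.66 for Wdr75, -0.41 for Nol11, -0.35 for Utp6 and -0.71 for Rrp9. Those of Nol10, Nop9, Bysl, Utp25, Nol6 and Utp3 were -0.68, -0.52, -0.54, -0.43, -0.42 and -0.52. Only Utp4, Wdr43, Utp15 and Nop14 of this paragraph were on the list of genes lower without that array.

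Imp3 and Imp4, which act together on the U3 particle, did not pass the test. Imp3 had levels of 9.12, 9.04 and 9.11 at D4PM, 9.25 and 9.29 at D2PM, and 9.22 and 9.39 in old cells. Imp4 had levels of 8.14, 8.19 and 8.28 at D4PM, 8.42 and 8.46 at D2PM, and 8.43 and 8.64 in old cells. For both genes the D2PM and old arrays overlapped while all D4PM arrays were below every old array, and the post-mortem changes were -0.13 for Imp3 and -0.22 for Imp4 (adjusted p = 0.415 and 0.185). Rrp36 (-0.21), Utp23 (-0.10) and Utp11 (0.21) did not pass the test either. Utp23 was the only gene of the 52 with a mean level below the 50th percentile of probe sets with a single gene.

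The factors of the large subunit included the most negative changes. Of 17 measured, 15 were lower in post-mortem cells and 2 did not pass the test, with a median change of -0.785. Gnl3 encodes nucleostemin, a GTP-binding protein of the nucleolus known from stem cells and dividing cells. Its levels were 9.19, 8.86 and 9.06 at D4PM, 9.37 and 9.38 at D2PM, and 10.39 and 10.46 in old cells, with no overlap between the 3 groups. Gnl3 had the smallest adjusted p of the 52 genes in the comparison with old cells, 7.12e-05 for a change of -1.22 (standard error 0.123), with -1.39 at D4PM and -1.05 at D2PM.

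Rrp1b and Rrs1 had the largest changes of the 52 genes when both days together were set against old cells. At D4PM alone the largest was that of Gnl3, and without old replicate 2 the changes were -0.92 for Rrp1b and -1.06 for Rrs1, against -1.18 for Gnl3. Rrp1b, a relative of Rrp1, had levels of 6.39, 6.56 and 6.57 at D4PM, 6.46 and 6.23 at D2PM, and 7.34 and 8.08 in old cells, a change of -1.29 (adjusted p = 0.000465). Its old arrays lay further apart than the 5 post-mortem arrays, all of which were below both. Rrs1, which in yeast helps to bring the smallest ribosomal RNA into the large subunit, had levels of 8.16, 8.20 and 7.76 at D4PM, 8.24 and 8.15 at D2PM, and 9.18 and 9.62 in old cells. It changed by -1.28 (adjusted p = 0.000253), and D4PM replicate 3 was the lowest array.

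Ftsj3 and Nol9 act as enzymes on the precursor. Ftsj3, a methyltransferase, had levels of 7.77, 7.49 and 7.79 at D4PM, 7.93 and 7.97 at D2PM, and 8.78 and 9.26 in old cells. Nol9, a polynucleotide kinase needed to process the spacer before the large subunit RNA, had levels of 7.40, 7.03 and 7.50 at D4PM, 7.68 and 7.68 at D2PM, and 8.43 and 8.92 in old cells. In both genes D4PM was below D2PM and D2PM below old on every array, and the post-mortem changes were -1.21 for Ftsj3 and -1.18 for Nol9 (adjusted p = 0.000253 and 0.00051). Nop2, a methyltransferase of the large subunit RNA, changed by -0.98 (adjusted p = 0.000739).

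Pes1, Bop1 and Wdr12 form the PeBoW complex, which is required for the maturation of the large subunit RNAs. Pes1 had levels of 7.56, 7.49 and 7.50 at D4PM, 7.56 and 7.64 at D2PM, and 8.22 and 8.55 in old cells. Its change was -0.87 at D4PM and -0.78 at D2PM, and both passed the test (adjusted p = 0.000938 and 0.00482). Bop1 had levels of 6.34, 6.44 and 6.32 at D4PM, 6.60 and 6.45 at D2PM, and 6.67 and 6.99 in old cells. All post-mortem arrays were below the old ones, by a smaller margin than in Pes1, with changes of -0.47 at D4PM (adjusted p = 0.0249) and -0.30 at D2PM (adjusted p = 0.179). Wdr12 had levels of 6.59, 6.33 and 6.57 at D4PM, 7.12 and 6.65 at D2PM, and 7.07 and 7.88 in old cells. One D2PM array was above old replicate 1, and the change was -0.98 at D4PM (adjusted p = 0.00733) and -0.59 at D2PM (adjusted p = 0.111). The 3 subunits were thus all lower at D4PM, while at D2PM Pes1 alone passed the test. With old replicate 2 left out, the post-mortem change was -0.66 for Pes1 (adjusted p = 0.0273), -0.23 for Bop1 (adjusted p = 0.319) and -0.38 for Wdr12 (adjusted p = 0.268). Whether the subunits differ from each other was not tested.

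The other large subunit factors that were lower in post-mortem cells were Nop16 (-0.79), Mrto4 (-0.72), Ebna1bp2 (-0.70), Nip7 (-0.61), Nol12 (-0.39) and Rrp1 (-0.33). Without old replicate 2 these changes were -0.66, -0.64, -0.53, -0.62, -0.38 and -0.33. Nop16 alone of them was on the list of genes lower without that array. Mrto4 is the relative of a yeast protein that holds the place of the ribosomal stalk until late in assembly, and its second probe set changed by -0.71. Rrp15 (-0.45) and Nop53 (-0.08) did not pass the test (adjusted p = 0.0858 and 0.709). Nop53, which recruits the RNA exosome in yeast, had levels of 10.70, 10.30 and 10.77 at D4PM, 10.41 and 10.39 at D2PM, and 10.64 and 10.50 in old cells. Its D4PM arrays overlapped both other groups, while both D2PM arrays lay below the old ones, and the D2PM change of -0.17 did not pass the test (adjusted p = 0.502).

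Ncl and Npm1 encode nucleolin and nucleophosmin, abundant proteins with several functions in the nucleolus. Ncl had levels of 11.02, 10.80 and 10.93 at D4PM, 10.92 and 11.02 at D2PM, and 11.57 and 11.60 in old cells, a change of -0.64 (standard error 0.115, adjusted p = 0.00207). Npm1 had levels of 10.16, 10.09 and 10.23 at D4PM, 10.22 and 10.25 at D2PM, and 10.58 and 10.34 in old cells. All post-mortem arrays of Npm1 were below both old arrays, but its change of -0.26 did not pass the test (adjusted p = 0.119). It was -0.14 without old replicate 1 and -0.38 without old replicate 2.

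Of 3 further nucleolar proteins, Nol8 and Rrp8 were lower and Nol7 did not pass the test. Nol8 had levels of 7.73, 7.73 and 6.96 at D4PM, 7.33 and 7.73 at D2PM, and 8.55 and 9.01 in old cells. The post-mortem arrays of Nol8 were spread over a wide range and all lay below the old ones, with a change of -1.28 (standard error 0.217, adjusted p = 0.00148). Rrp8, which methylates the large subunit RNA, changed by -0.41 (adjusted p = 0.0465). Neither passed the test without old replicate 2, with changes of -1.05 for Nol8 (adjusted p = 0.0762) and -0.16 for Rrp8 (adjusted p = 0.474). Nol7 changed by 0.22 (adjusted p = 0.209).

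Nol3 and Nol4 share only the name with the rest. Nol3 encodes ARC, a cytoplasmic repressor of apoptosis that is abundant in muscle. It had levels of 8.18, 8.41 and 8.43 at D4PM, 8.14 and 8.02 at D2PM, and 7.49 and 7.76 in old cells. All post-mortem arrays were above the old ones, and Nol3 was the only 1 of the 52 genes called higher, by 0.58 (standard error 0.128, adjusted p = 0.00608). Left without old replicate 1, the fit did not call it. Nol4 had levels of 6.72, 6.66 and 6.73 at D4PM, 6.47 and 6.57 at D2PM, and 6.57 and 6.29 in old cells. Its D4PM arrays were above all others and its D2PM and old arrays overlapped, and the post-mortem change of 0.18 did not pass the test (adjusted p = 0.285). Its dimmest probe set changed by -0.03. Without Nol3 and Nol4, 40 of 50 genes were lower and 0 higher in the limma test. An unadjusted p under 0.05 was found for 42 of the 50, all of them lower, and for 4020 of all 9944 genes, 2010 of them lower.

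**Figure D2:**
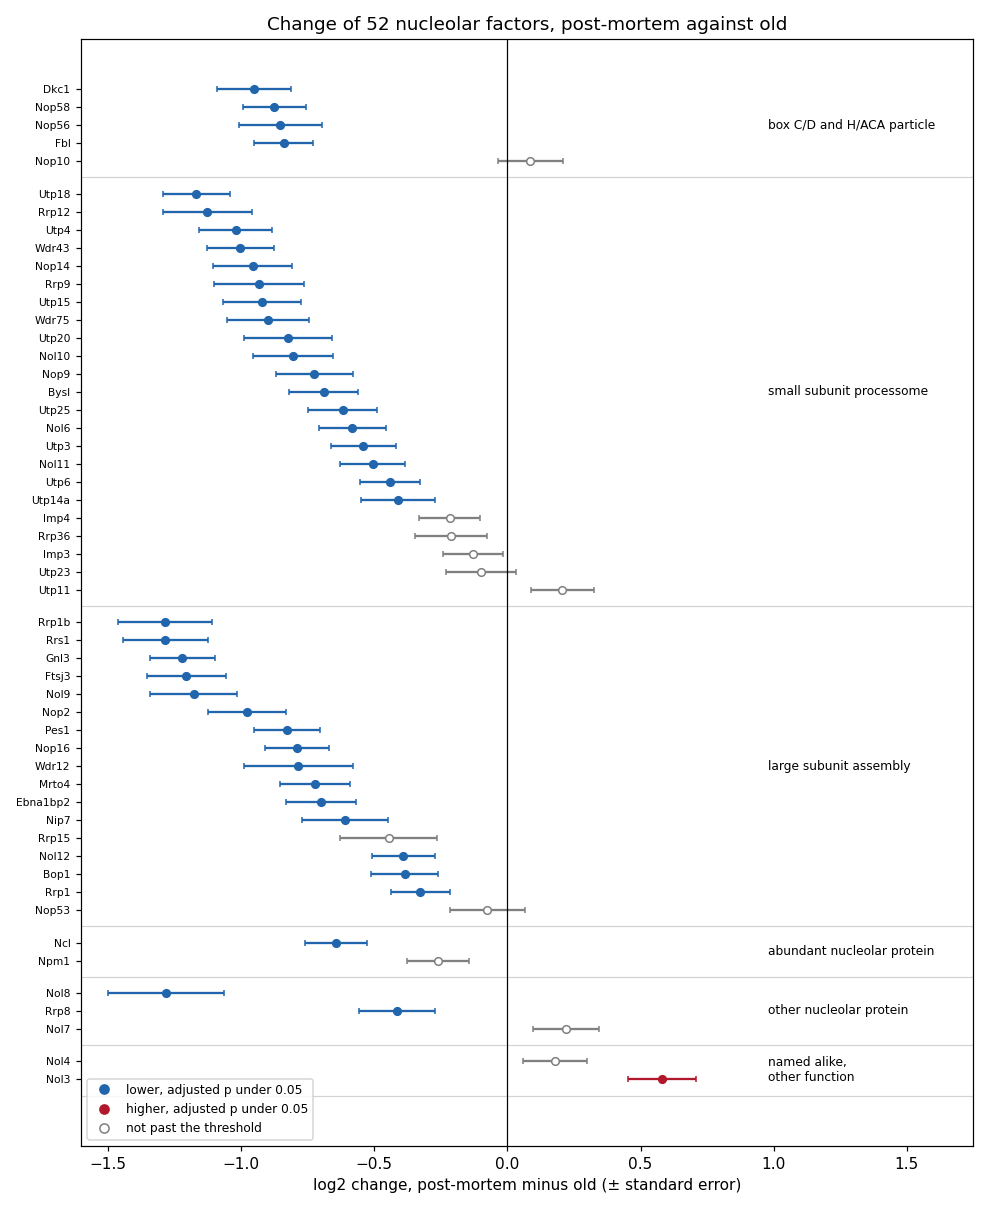
Log2 change of each of the 52 genes in post-mortem (mean of D4PM and D2PM) minus old cells, with bars of 1 standard error from limma, grouped by role and sorted by change. Filled blue points are the 40 genes called lower, the filled red point is Nol3, and open points are the 11 genes that did not pass the test.

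**Figure D3:**
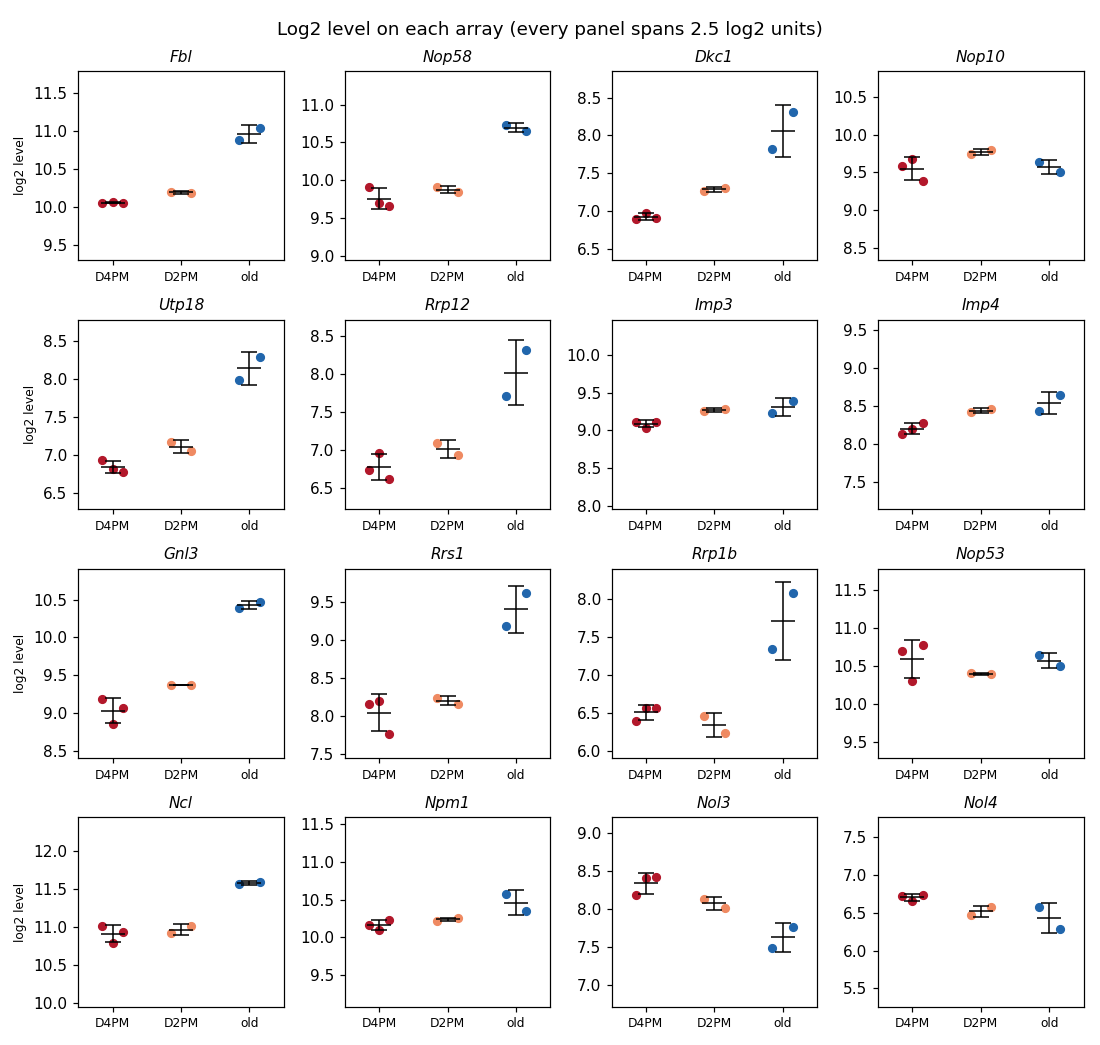
Log2 level on each array (points) with the group mean and SD (bars) for 16 of the genes, in D4PM (n = 3), D2PM (n = 2) and old cells (n = 2). Each panel spans the same number of log2 units. Gnl3, Utp18, Dkc1 and Fbl have 3 separate groups, in Nop10 and Nop53 the D4PM arrays overlap the old ones, and Nol3 runs the other way.

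Each post-mortem day was also set against old cells on its own. These comparisons share the 2 old arrays. At D4PM 39 of the 52 genes were lower and 1 higher, where 15.5% of all genes tested were lower and 12.4% higher. At D2PM 30 were lower and 0 higher in the limma test, where 9.11% of all genes were lower and 10.3% higher. An unadjusted p under 0.05 at D2PM was found for 38, 37 of them lower, and for 3270 of all 9944 genes, 1532 of them lower. The median log2 change was -0.798 at D4PM and -0.590 at D2PM, with median standard errors of 0.142 and 0.156. Adjusted p-values of the lower genes ran between 5.63e-05 and 0.0434 at D4PM and between 0.00099 and 0.0445 at D2PM. Without old replicate 2, 23 of the 52 were lower at D4PM (5.24% of all genes) and 6 at D2PM (1.52%). The D2PM count also fell to 7 without D2PM replicate 1 and to 10 without D2PM replicate 2 (1.45% and 2.22% of all genes).

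Between the days themselves 0 of the 52 genes differed in the limma test, where 0.191% of all genes tested did. The smallest adjusted p was 0.567. At an unadjusted p under 0.05 in limma there were 3 of the 52 genes and 772 of all 9944 genes tested. The 3 are thus not above the share of all genes. They were Nol10 (-0.43), Dkc1 (-0.36) and Gnl3 (-0.34), all lower at D4PM. The ordinary test of 2 groups that the methods also name gave 10 unadjusted, for which no share over all genes was taken. With adjusted p it gave 0, as it did over all genes tested. The changes were small and mostly of one sign. The log2 change of D4PM against D2PM was below 0 in 47 of the 52 genes, where 56.6% of all genes tested were below 0, with a median of -0.170 against -0.032 for all genes. In 27 of the 52 genes all D4PM arrays were below both D2PM arrays, and 15.6% of all genes were separated in that way, while 2 genes, Nol3 and Nol4, had all D4PM arrays above. Changes ran from -0.43 for Nol10 to 0.27 for Nol3, with a median standard error of 0.142, so differences of this size were not resolved gene by gene with 3 and 2 arrays. Markers of other cell types were set beside this shift. All 15 endothelial markers tested had a change above 0 (median 0.274) and all 8 of fibroadipogenic progenitors a change below 0 (median -0.263). In the limma test 0 of either list passed (0 and 3 at an unadjusted p under 0.05). Other lists were mixed, with 6 of 11 satellite cell, 4 of 11 myofibre and 2 of 5 macrophage and monocyte markers below 0. Their medians were -0.022, 0.036 and 0.039, and 0 were called. Myog, a transcription factor of differentiating muscle cells, had levels of 6.12, 5.80 and 5.95 at D4PM, against 7.43 and 7.75 at D2PM, and was lower at D4PM (change -1.63, adjusted p = 0.00255). Their part in the small shift of the nucleolar genes was not tested.

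**Figure D4:**
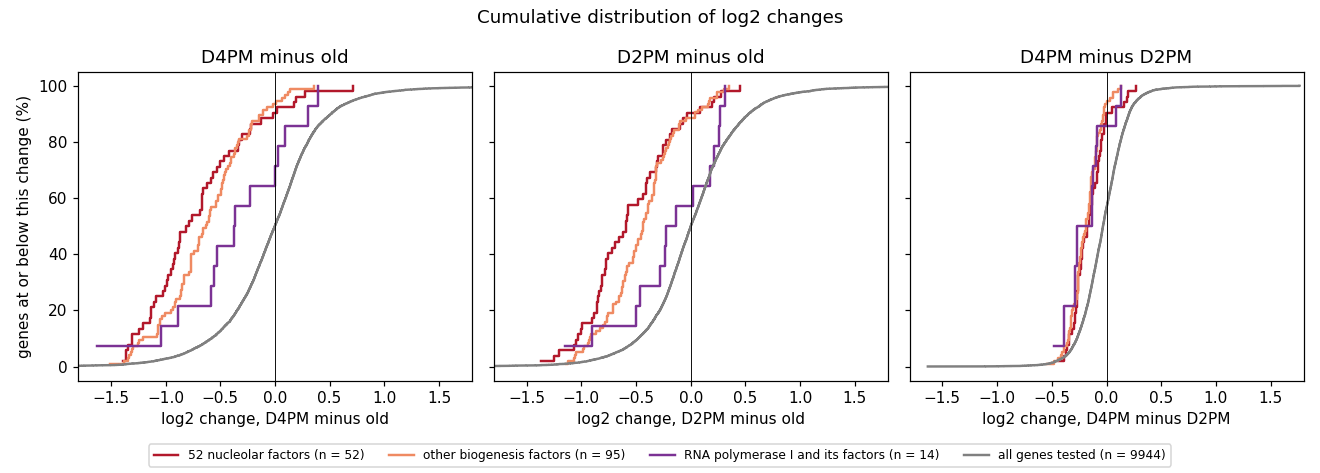
Share of genes (percent) at or below each log2 change, for D4PM minus old, D2PM minus old and D4PM minus D2PM, with a line each for the 52 nucleolar genes, 95 other ribosome biogenesis genes, 14 genes of RNA polymerase I and its factors, and all 9944 genes tested (changes beyond the axis are not drawn). Against old cells the nucleolar genes (median -0.798 at D4PM and -0.590 at D2PM) lie left of all genes, and between the days the shift is small (median -0.170).

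Other genes of the pathway that the naming rule does not reach were read in the same way. Of 105 further factors of ribosome assembly and rRNA processing listed, 95 were tested. In post-mortem against old cells 63 of them were lower and 0 higher, with a median of -0.540, where 14.7% of all genes tested were lower. An unadjusted p under 0.05 in limma was found for 73, 72 of them lower, and for 4020 of all 9944 genes, 2010 of them lower. At D4PM 68 were lower (median -0.626, against 15.5% of all genes) and at D2PM 41 (median -0.435, against 9.11%). Between the days 0 were called, with 10 at an unadjusted p under 0.05 in limma, where 772 of all 9944 genes were. Without old replicate 2, 20 were lower in post-mortem cells, 29 at D4PM and 3 at D2PM (4.54%, 5.24% and 1.52% of all genes), and the D2PM count was 5 without D2PM replicate 1 and 6 without D2PM replicate 2 (1.45% and 2.22%). Those with the largest statistics included Noc4l, Nolc1, Nat10, Tsr1, Esf1 and Rcl1. Noc4l, a small subunit factor, had levels of 7.01, 6.89 and 7.13 at D4PM, 7.35 and 7.39 at D2PM, and 8.40 and 8.64 in old cells, without overlap and with a change of -1.32 (adjusted p = 4e-05). Nolc1 encodes a chaperone of small nucleolar particles and changed by -1.21 (adjusted p = 0.000105). Nat10, which acetylates cytidines of the small subunit RNA, changed by -1.18 (adjusted p = 0.000153), Tsr1 by -1.11, Esf1 by -1.11 and Rcl1 by -1.20.

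The list for RNA polymerase I and its factors held 18 genes, of which 14 were tested. Of these 4 were lower and 0 higher in post-mortem cells (7 had an unadjusted p under 0.05, 6 of them lower), with a median of -0.239. Of all 9944 genes, 4020 had an unadjusted p under 0.05 in limma, 2010 of them lower. The 4 were 28.6% of the list, against 14.7% of all genes tested. The 4 were Polr1b, Cd3eap, Polr1e and Taf1a. Polr1b, the second largest subunit of the enzyme, had levels of 6.18, 6.23 and 5.85 at D4PM, 6.56 and 6.56 at D2PM, and 7.38 and 8.04 in old cells, a change of -1.39 (adjusted p = 0.000271). Polr1a, the largest subunit, changed by -0.29 (adjusted p = 0.167). Ubtf, which binds the ribosomal gene promoter, changed by -0.18 (adjusted p = 0.303). At D4PM 6 of the 14 were lower (42.9%, against 15.5% of all genes) and at D2PM 2 (14.3%, against 9.11%). Between the days 0 were called by limma, with 3 at an unadjusted p under 0.05, where 772 of all 9944 genes were. Without old replicate 2 fewer of the list were called lower in each comparison with old cells, as was so for all genes tested. The change of Polr1b was then -1.06 in post-mortem cells, -1.30 at D4PM and -0.82 at D2PM. The D4PM count was also 3 without D4PM replicate 3, where 12.3% of all genes tested were lower. Leaving out either D2PM array lowered the D2PM count, for the list and for all genes.

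Myc, looked up after its values were seen, was lower as well. Its levels were 12.03, 11.76 and 11.81 at D4PM, 11.92 and 11.86 at D2PM, and 12.42 and 12.44 in old cells, with no overlap of post-mortem and old arrays and a change of -0.56 (standard error 0.119, adjusted p = 0.00524). The change was -0.55 without old replicate 2 (adjusted p = 0.065). Its part in the changes of the nucleolar genes was not tested.

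Markers of other cell types and states moved with the comparison of post-mortem and old cells, in which 14.4% of all genes tested were higher and 14.7% lower. Of 16 endothelial markers 15 were tested and 10 were higher in post-mortem cells, with mean log2 levels of 6.79 to 7.34 at D4PM, 6.83 and 6.84 at D2PM, and 6.43 and 5.83 in old cells. Of 12 myofibre markers 11 were tested and 9 were higher, with mean levels of 8.22 to 8.52 at D4PM, 8.38 and 8.24 at D2PM, and 7.56 and 7.27 in old cells. Both lists were lowest on old replicate 2, the array on which the nucleolar genes were highest. The satellite cell and fibroadipogenic lists were lowest on that array too (9.697 and 7.584). Genes of myogenic activation were highest on it (7.924, against 7.225 on old replicate 1). Of 14 macrophage and monocyte markers 5 were tested, and 1 was lower. Of 10 markers of fibroadipogenic progenitors 8 were tested, and 0 passed the limma test. At an unadjusted p under 0.05 there were 3, where 4020 of all 9944 genes were. Of 11 satellite cell markers, 4 were higher and 1 was lower in post-mortem cells. Of 6 genes of myogenic activation 4 were tested, 1 lower and 1 higher. The lower was Myod1, a transcription factor of activated satellite cells (change -1.23, adjusted p = 0.00036 from limma). Its levels were 9.60, 9.91 and 9.25 at D4PM, 9.75 and 9.91 at D2PM, and 10.90 and 10.97 in old cells. The higher gene changed by 0.70. Over the 4 tested the median change was -0.131, with 2 of them below 0, so the list had no single direction. Myog, on the same list, had levels of 6.46 and 6.84 in old cells and was not called (change 0.12, adjusted p = 0.574 from limma). Against old cells Myog was higher at D2PM (0.94, adjusted p = 0.00505) and lower at D4PM (-0.70, adjusted p = 0.00836). With old replicate 2 left out, 2 endothelial, 6 myofibre and 1 of the satellite cell markers were higher, against 4.09% of all genes. The part of these cell types and of this state in the changes of the nucleolar genes was not tested.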

How the data were processed

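RNA of satellite cells, sorted by FACS into lysis buffer, was hybridised to 7 arrays (GeneChip Mouse Gene 1.0 ST) after amplification (Ovation Pico V2). The values deposited by the authors are log2 signals from RMA. Per the submitters' notes, limma was also used. According to the methods, probes that were invariant or not expressed had been taken out, at thresholds that are not given, and no deposited probe set has an SD over the 7 arrays below 0.0914. Calls are thus shares of genes that vary. The values carry no detection call, and the number of arrays limits the precision. The table held 18675 probe sets, of which 14480 named 1 gene in the annotation of the array, 774 named more and 3421 had no gene listed. Through Entrez identifiers 14425 matched a RefSeq table of GRCm38.p6, with 0 symbols changed. The brightest probe set stood for each gene (48 of the 52 nucleolar genes had 1), and genes below the 25th percentile of mean signal, 5.12, were left out.

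Groups came from the array labels. Group means were fitted with limma 3.58.1 in R 4.3.3 (empirical Bayes moderation, 4 residual degrees of freedom, Benjamini-Hochberg adjustment over 9944 genes) and compared as post-mortem (both days at equal weight) with old, each day with old, and D4PM with D2PM. The fit was tested on simulated data. The members, lists, motifs and rules were chosen with earlier results of these data known. Levels on every array are given for the best known members (Ncl, Npm1, Fbl, Dkc1, Nop56, Nop58, Bop1, Pes1, Wdr12, Imp3 and Imp4), Nol3, Nol4, and the 5 highest and lowest changes per comparison with old cells among called genes whose arrays did not overlap, and for up to 4 genes of each further list and comparison the largest statistics were read. Utp18, Rrp12, Nop10, Nop53, Polr1a, Ubtf, Myc and Myod1 were named after their values were seen. The alternatives comprised quantile normalisation once more, centring on array medians, other filters, the mean of probe sets, a trended and robust prior, array weights, a replicate block, leaving out each array, a log2 change of at least 1, and the methods' t-test.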

Additional observations from a re-analysis of the deposited data

Results flagged for a closer look

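The 5 post-mortem arrays were searched for single arrays far from the rest, in each of the 52 genes and in their mean level. Of these 53 sets of values 3 held such an array, which is about the rate of 1 in 20 that chance gives. A D4PM array was the lowest of the 7 in 45 of the 52 genes, and the rate over all genes was not taken. All 3 were D4PM replicate 3, and it was the lowest array each time. Rrs1 was at 7.760 on it, against 8.155 to 8.240 on the other post-mortem arrays. Utp20 was at 6.163, against 6.492 to 6.560. Wdr75 was at 7.695, against 8.021 to 8.144. The gap to the nearest array was 0.822, 0.828 and 0.727 of the whole range in these genes, above the critical value of 0.710. Without D4PM replicate 3, 36 of the 52 genes were lower in post-mortem against old cells, where 13.6% of all genes tested were.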

How the results depend on the processing

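For post-mortem against old cells, 41 of the 52 genes were called, 10 with a log2 change of at least 1 in size, and between 19 and 39 when an array was left out, the fewest without old replicate 2. For D4PM against old 40 were called, 15 with a change of at least 1, 0 by the methods' t-test with adjusted p (39 at an unadjusted p under 0.05), and 24 to 40 when an array was left out. For D2PM against old 30 were called, 7 with a change of at least 1, 0 by the methods' t-test (16 unadjusted), and 6 to 30 when an array was left out. The t-test takes its spread from the arrays of 1 gene and of the compared groups alone. Of all 9944 genes it called 5 lower and 9 higher at D4PM with adjusted p, and 10 lower and 5 higher at D2PM. Its 0 among the 52 is thus not particular to them. Shares over all genes were not taken for a change of at least 1 or for the unadjusted t-test. In the main fit 14.7%, 15.5% and 9.11% of all genes tested were lower for post-mortem, D4PM and D2PM against old. Those higher were 14.4%, 12.4% and 10.3%. The shares lower also shrank when an old or a D2PM array was left out. Median changes ran from -0.836 to -0.537 for post-mortem, -0.939 to -0.626 for D4PM and -0.759 to -0.466 for D2PM against old when an array was left out. The other alternatives kept these counts within 1.5 times, and kept 0 calls between the days. Where an array was left out of a group of 2, the lone array was assumed to vary like the other groups.

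The replicate numbers showed no sign of pairing, with correlations of deviations between -0.080 and 0.051. With the replicate block 37 were called for post-mortem, 38 for D4PM and 30 for D2PM against old, of which 36, 37 and 30 were lower. Of all genes tested 14.4%, 13.2% and 9.4% were lower in that fit. Between the days it called 0 of the 52, where 0.171% of all genes were lower and 0.372% higher. The fit with the block takes up D4PM replicate 3, which has no partner of its number, and so drops it. For the 19 genes with levels named by rule, 1151 of 1235 alternative values kept direction and call. Some of these genes were chosen for large called changes, which favours such a count. Among the values kept, 128 with an array left out and 186 others were for D4PM against D2PM. There 0 genes had been called, so keeping the call means staying uncalled. The changes that turned sign had not passed the test. Between D4PM and D2PM, Nop56 was at 0.035 after a second quantile normalisation, 0.066 with the replicate block, and -0.112 to 0.066 when an array was left out. Nol8 was at 0.006, 0.198, and -0.254 to 0.198 under the same changes. Ncl ran from -0.105 to 0.005 when an array was left out. Between D2PM and old, leaving out an array gave -0.120 to 0.045 for Imp3, -0.204 to 0.007 for Imp4 and -0.054 to 0.231 for Nol4. The causes were not tested.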
